A study of Mus musculus with 8 samples.

Results

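Lysophosphatidic acid and sphingosine 1-phosphate are lysophospholipids that cells sense through G protein-coupled receptors of the Lpar and S1pr families. Autotaxin, the secreted lysophospholipase D encoded by Enpp2, makes lysophosphatidic acid from lysophosphatidylcholine outside the cell, and sphingosine kinases make sphingosine 1-phosphate inside it. The receptors couple to several G protein classes and act on adenylyl cyclase and phospholipase C, among other effectors. In muscle, both lipids are known as serum factors that affect the growth and differentiation of myoblasts. Of 9 genes listed, 8 were measured, by 16 probe sets: Lpar1, Lpar2, Lpar3, Lpar4, Lpar6, S1pr1, S1pr2 and S1pr3, out of 18193 genes named on the array. Lpar4 was chosen by its higher values after the knockdown. The others were taken by family name, with earlier results of these data known. Lpar5, S1pr4 and S1pr5 of the same families were placed in a list of other pathway genes instead. Enpp2 was not analysed here, so nothing is said about the enzyme's transcript.

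The cells were C2C12, an established mouse myoblast line, transduced at an moi of 100 with lentivirus and sorted for GFP. In 4 cultures the virus carried DOR siRNA. DOR is another name for the Trp53inp2 protein, a coactivator of nuclear receptors that also works in autophagy. In the other 4 it carried scrambled RNA. Both groups then spent 4 days in medium with 5% horse serum, per the labels' protocols, although the labels also call the samples confluent myoblasts and carry the mark D2, so the stage at harvest is not settled. Horse serum is itself a source of lysophospholipids, and its content of them was not measured.

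The arrays gave log2 values per probe set after RMA, and array medians lay between 6.14 and 6.21. The brighter probe set of Trp53inp2 was lower in every knockdown array, at 9.46, 9.93, 9.49 and 9.18 against 11.50, 11.55, 11.43 and 10.92 with scrambled RNA (difference -1.83 ± 0.17 log2 units, SE, limma adjusted p = 0.00087), while its dimmer probe set did not pass (0.14 ± 0.08, limma adjusted p = 0.52). Both groups expressed muscle genes: the group means of all 13 markers of myoblasts and myotubes were above 6.18, the median of all probe sets, although Myh4 read 5.68 and 6.02 in knockdown cultures 3 and 4. Of these markers 7 were lower in the knockdown by limma (Myh1, Myh3, Myh4, Myh8, Actn2, Mef2c and Tnnt3) and 0 were higher. Over all genes, by the brightest probe set of each, 1.45% were called lower and 3.11% higher. Markers of other cells were low. By their mean over the arrays, the 5 endothelial and the 3 measured adipocyte markers all lay under that median, as did 3 of 5 haematopoietic ones. The endothelial marker Kdr was barely under it and read above it on single arrays of both groups, at most 6.34 (scrambled culture 4) and 6.35 (knockdown culture 3). The summed levels of each list of markers of other cells overlapped between groups. On the log2 scale they were 7.34 to 7.54 with scrambled RNA against 7.35 to 7.52 in the knockdown (endothelial), 8.02 to 8.10 against 7.86 to 8.14 (haematopoietic) and 5.47 to 5.71 against 5.46 to 5.73 (adipocyte).

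Lpar4 was the member chosen for its higher values in the knockdown, so its standing apart from the other members is no finding. It encodes a lysophosphatidic acid receptor of the P2Y-like branch, related in sequence to purinergic receptors rather than to Lpar1, Lpar2 and Lpar3. The bases upstream of its RefSeq start are shown because it was the member with clearly higher values in the knockdown, beside those of Lpar6, its P2Y-like relative among the measured genes. Both are from RefSeq on GRCm38.p6, on the plus strand, for the 250 bases before the start: chrX:106920375-106920624 for Lpar4 and chr14:73237641-73237890 for Lpar6. Capitals mark CCAAT on either strand (ATTGG as read here).
Lpar4: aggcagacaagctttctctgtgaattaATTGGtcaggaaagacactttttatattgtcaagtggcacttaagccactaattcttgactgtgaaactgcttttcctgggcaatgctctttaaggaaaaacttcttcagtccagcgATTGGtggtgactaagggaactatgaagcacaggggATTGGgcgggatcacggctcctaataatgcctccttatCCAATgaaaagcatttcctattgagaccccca
Lpar6: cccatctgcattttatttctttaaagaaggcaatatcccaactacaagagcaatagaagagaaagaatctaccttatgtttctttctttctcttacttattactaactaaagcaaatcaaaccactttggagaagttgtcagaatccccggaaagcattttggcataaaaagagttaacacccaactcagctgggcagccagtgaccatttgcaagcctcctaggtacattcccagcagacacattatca

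The Lpar4 window held CCAAT 4 times, beginning 223, 106, 70 and 32 bases before the start, and the Lpar6 window 0 times. Of all 32851 windows of this length in the table, 33.8% held at least 1 CCAAT and 0.84% held 4 or more. This motif was marked after the sequence had been seen. Other short motifs were searched on both strands. CANNTG, the E-box that myogenic bHLH factors recognise, occurred 1 time for Lpar4 and 3 times for Lpar6, against 66.2% of windows with at least 1. GGGCGG, the GC box, occurred 1 time for Lpar4, overlapping the CCAAT match at 70 bases, and 0 times for Lpar6 (32.7% of windows). TATAAA occurred 1 time for Lpar4 and 0 times for Lpar6 (12.4%), and CATTCC, the M-CAT element, 0 and 1 times (12.6%). Neither window held a CArG box (1.47% of windows) or a MEF2 box (0.508%). Windows were found for 7 of the 9 genes listed. These counts describe letters and say nothing of binding.

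Lpar4 was read by 3 probe sets, and all were higher in the knockdown. The brightest, 1439665_at, read 5.16, 5.26, 5.09 and 5.15 with scrambled RNA and 6.73, 7.53, 6.22 and 5.72 with DOR siRNA. The lowest knockdown array thus lay above the highest scrambled one, and knockdown culture 2 lay highest of all. The means were 5.17 ± 0.07 and 6.55 ± 0.77 (SD, n = 4 each), a 2.61-fold difference (1.38 ± 0.29 log2 units, SE). Since Lpar4 was chosen for this difference, it is given as a description with no test.

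The second probe set of Lpar4, 1452424_at, read 4.92, 4.98, 5.18 and 4.91 against 6.33, 6.22, 5.61 and 5.46, again with no overlap and a difference of 0.91 ± 0.18. The third, 1434186_at, read 3.76, 3.54, 3.93 and 3.87 against 5.06, 5.91, 4.41 and 3.96, a difference of 1.06 ± 0.32. Here knockdown culture 4 (3.96) was barely above scrambled culture 3 (3.93), so the separation rested on the other 3 knockdown arrays. By size of increase among all 45037 probe sets, the 3 ranked 11, 102 and 49 in the order given. All 3 were lower in knockdown cultures 3 and 4 than in 1 and 2.

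The size of the difference in Lpar4 is not firm. All 3 scrambled means (5.17, 5.00 and 3.78) were below 6.18, and no detection call was used that would show signal above background there. Leaving out knockdown culture 2 kept 76.3% of the log2 difference of the brightest probe set, 88.5% of that of 1452424_at and 66.3% of that of 1434186_at. Across the arrays left out in turn, the brightest probe set differed by 1.06 to 1.66. The pairing of same-numbered cultures gave the same 1.38 with an SE of 0.22. More cells with the transcript and more transcript per cell cannot be told apart in RNA of whole cultures.

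Other readings varied among the same 4 knockdown cultures. Trp53inp2 was highest in culture 2 (9.93) and lowest in culture 4 (9.18), the cultures with the highest and lowest Lpar4 on 2 of its 3 probe sets (on 1452424_at culture 1 was highest). The mean level of the 13 muscle markers was 11.30, 11.25, 11.09 and 10.89 in knockdown cultures 1 to 4, against 12.10, 12.26, 11.99 and 11.86 with scrambled RNA. The muscle markers were therefore lower as a group where Lpar4 was higher, but within the knockdown cultures their mean was lowest in culture 4, where Lpar4 was lowest too. The 3' minus 5' difference of the Gapdh and Actb control probe sets, a sign of RNA quality, was 0.28 in knockdown culture 2 and 0.061 to 0.15 on the other 7 arrays. With it as a covariate, the brightest Lpar4 probe set differed by 1.25. The part of marker level in the Lpar4 difference was not tested.

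**Figure D1:**
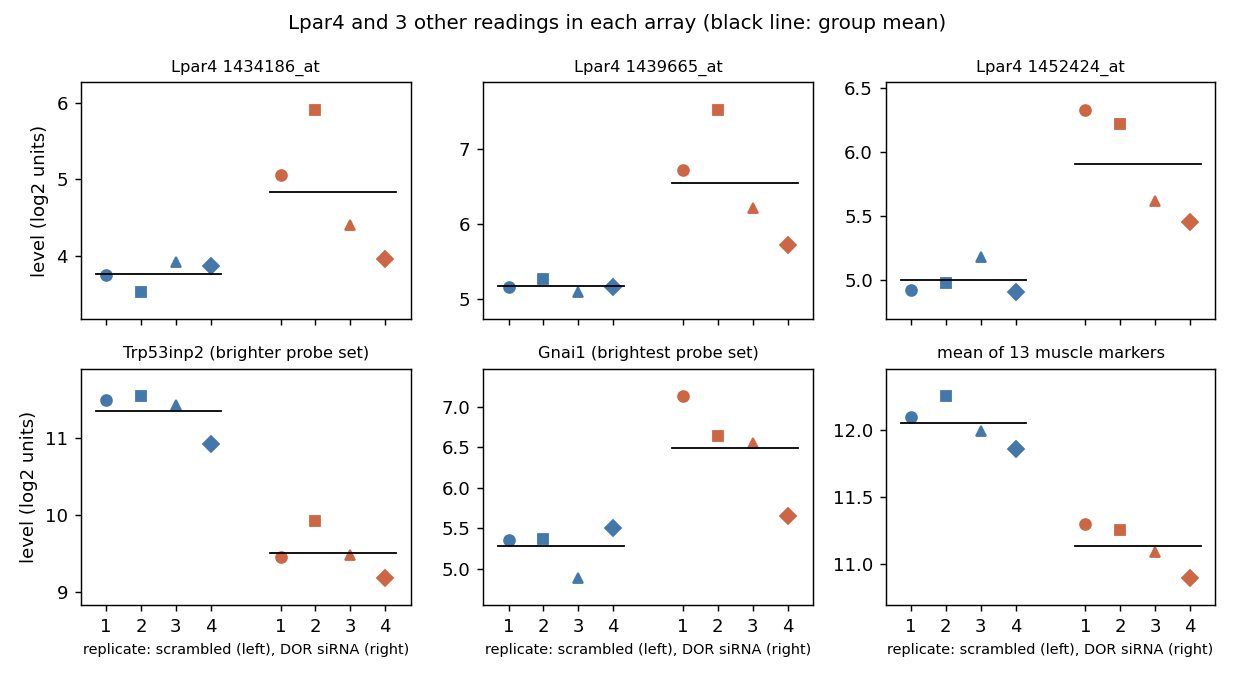
Level in log2 units (y axis, a separate scale in each panel) on each array (x axis, replicates 1 to 4 of scrambled in blue and of DOR siRNA in orange) for the 3 probe sets of Lpar4, the brighter probe set of Trp53inp2, the brightest of Gnai1 and the mean of 13 muscle markers, with group means as black lines. Lpar4 (1439665_at) lies between 5.09 and 5.26 in the scrambled arrays and between 5.72 and 7.53 in the knockdown arrays, and knockdown culture 4 is lowest of the knockdown arrays in every panel.

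Genes with the most similar pattern were sought among the 11407 genes whose higher group mean reached 6.18. By Pearson's r with the brightest Lpar4 probe set over the 8 arrays, the closest were Tmed3 (r = 0.997), Tpbg (0.994), Ccdc102a (0.990), Vcam1 (0.989) and Npr3 (0.989). Tmed3 is a protein of vesicle traffic, Tpbg a trophoblast glycoprotein, Vcam1 an adhesion molecule of myoblasts and Npr3 the clearance receptor of natriuretic peptides. Tmed3 read 9.42 to 9.54 in the scrambled arrays and 10.06, 10.39, 9.88 and 9.62 in knockdown cultures 1 to 4, the same order as Lpar4. Its mean difference was 0.53 ± 0.14 (SE), beside 0.50 ± 0.12 for Tpbg, 0.38 ± 0.10 for Ccdc102a, 0.76 ± 0.16 for Vcam1 and 1.99 ± 0.38 for Npr3. Npr3 entered the comparison through the knockdown group alone, with a mean of 6.47 there and 4.48 with scrambled RNA. Since these genes were selected for their likeness to Lpar4, which includes its group difference, their differences and r are descriptions with no test.

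After the group means were removed, the closest genes were Aebp1 (r = 0.997), Tmed3 (0.994), Pbx2 (0.992), Tenm3 (0.987) and Ptk7 (0.986). These rest almost wholly on the knockdown cultures, since Lpar4 spread over an SD of 0.07 in the scrambled ones. Pbx2, a homeodomain partner of Hox proteins, followed the order of Lpar4 among the knockdown cultures (8.36, 8.62, 8.16 and 8.03) although its mean was lower there than with scrambled RNA (difference -0.43 ± 0.12). Tenm3 (0.06 ± 0.20) and Ptk7 (0.08 ± 0.12) showed little mean difference. All 5 were selected for this order, so it is no finding about them. Among the other receptors' brightest probe sets that reached 6.18, this r was 0.63 for Lpar6, 0.15 for S1pr2, 0.10 for S1pr3, 0.07 for Lpar1 and -0.04 for S1pr1, and over levels it was 0.46, 0.51, 0.57, -0.18 and -0.23 in the same order.

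None of the other 7 measured receptors was called with all 8 arrays. Of their 13 probe sets, 0 passed the limma threshold of adjusted p under 0.05, against 3.22% of all probe sets tested (2.04% higher and 1.19% lower). Before adjustment 2 had a limma p below 0.05, 1 each of S1pr2 and S1pr3. The share of all probe sets below that p was not counted, so these 2 are no finding about the receptors. The groups overlapped for all 13, while 9.85% of all probe sets showed no overlap. Differences ran from -0.21 to 0.52 with a median of 0.070, against a median of 0.002 over all probe sets, and 9 were above 0 and 4 below. Each interval given with a difference is the 95% interval from limma.

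**Figure D2:**
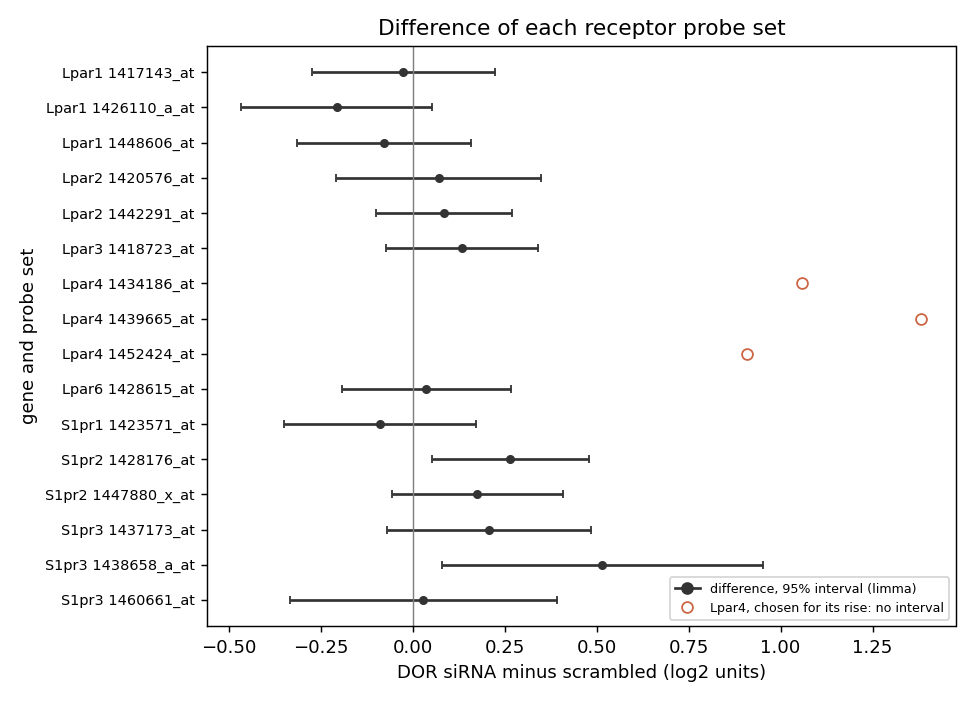
Difference between DOR siRNA and scrambled cultures in log2 units (x axis) for each of the 16 probe sets (y axis), with 95% intervals from limma for the 13 probe sets of the other receptors and open circles without interval for Lpar4. The Lpar4 circles lie at 0.91 to 1.38, and the other differences at -0.21 to 0.52, of which 1 probe set each of S1pr2 and S1pr3 has an interval above 0 before adjustment over all probe sets. The share of all probe sets with such an interval was not counted.

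Among the lysophosphatidic acid receptors of the Edg branch, Lpar1 is the widely expressed member, coupled to Gi, Gq and G12/13. Its brightest probe set, 1448606_at, read 10.62, 10.74, 11.08 and 11.03 with scrambled RNA and 10.71, 10.85, 10.86 and 10.74 in the knockdown. The knockdown values lay inside the scrambled range (difference -0.08 ± 0.11, interval -0.32 to 0.16, limma adjusted p = 0.83). Its other probe sets differed by -0.03 ± 0.11 and -0.21 ± 0.12, and neither passed (limma adjusted p = 0.96 and 0.46). A fall in Lpar1 of more than 0.47 log2 units, or a rise of more than 0.22, thus lay outside the intervals of all 3.

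Lpar2, which binds PDZ proteins through its tail, and Lpar3, which prefers unsaturated lysophosphatidic acid, were dim. The brighter Lpar2 probe set read 5.92, 5.39, 5.64 and 5.94 against 5.63, 5.95, 5.85 and 5.75 (difference 0.07 ± 0.13, interval -0.21 to 0.35, limma adjusted p = 0.88), and the dimmer one differed by 0.08 ± 0.08. Lpar3 read 3.69, 3.52, 3.48 and 3.35 against 3.78, 3.63, 3.49 and 3.69 (difference 0.13 ± 0.09, interval -0.07 to 0.34, limma adjusted p = 0.58). Both genes read below 6.18 in both groups, and signal above background was not shown for either.

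Lpar6, the P2Y-like relative of Lpar4, was readily measured. It read 8.41, 8.19, 8.09 and 8.42 with scrambled RNA and 8.43, 8.45, 8.27 and 8.12 in the knockdown. The groups overlapped, and the knockdown cultures stood in the same order as for the brightest Lpar4 probe set (2, 1, 3, 4 from high to low), within a range narrower than that of Lpar4 (difference 0.04 ± 0.10, interval -0.19 to 0.27, limma adjusted p = 0.93). Within the P2Y-like branch, then, the higher level after the knockdown was seen for Lpar4 and not detected for Lpar6, and the difference between these genes was not tested because Lpar4 had been chosen for its values.

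None of the 3 members that are receptors for sphingosine 1-phosphate passed the test with all 8 arrays. The family also holds S1pr4 (-0.07 ± 0.08, limma adjusted p = 0.79) and S1pr5 (-0.16 ± 0.11, limma adjusted p = 0.54). Both are counted in the first list below, did not pass, and are named after their values were seen. S1pr1, which couples to Gi and directs lymphocyte and endothelial responses, read 7.99, 7.87, 8.32 and 7.73 against 7.93, 7.84, 8.003 and 7.78 (difference -0.09 ± 0.12, interval -0.35 to 0.17, limma adjusted p = 0.82). The knockdown arrays again fell inside the scrambled range.

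S1pr2, coupled to G12/13 among other G proteins, was represented by 2 probe sets. The brighter, 1447880_x_at, read 7.69, 7.57, 7.84 and 8.04 against 7.85, 8.09, 7.94 and 7.97 (difference 0.18 ± 0.11, interval -0.06 to 0.41, limma adjusted p = 0.50). The other, 1428176_at, read 7.20, 7.09, 7.01 and 7.38 against 7.47, 7.55, 7.44 and 7.27. In that probe set 3 knockdown arrays lay above every scrambled array and knockdown culture 4 lay below scrambled culture 4, and the knockdown cultures again stood in the order of Lpar4. Its difference of 0.27 ± 0.10 had an unadjusted p of 0.019 and did not pass after adjustment (limma adjusted p = 0.20).

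S1pr3, which couples to Gi, Gq and G12/13, was read by 3 probe sets, whose differences were not tested against each other. The brightest, 1438658_a_at, read 7.17, 7.30, 7.61 and 8.25 with scrambled RNA and 7.94, 8.23, 8.25 and 7.97 in the knockdown, a difference of 0.52 ± 0.20 (interval 0.08 to 0.95, limma adjusted p = 0.22). All 4 knockdown arrays lay above scrambled cultures 1, 2 and 3, while scrambled culture 4 lay level with the highest of them. Without scrambled culture 4 the difference was 0.74 ± 0.13 and passed the threshold (limma adjusted p = 0.011), and in no other fit tried did any probe set of these 7 genes pass. The other S1pr3 probe sets differed by 0.21 ± 0.13 (1437173_at, limma adjusted p = 0.50) and 0.03 ± 0.16 (1460661_at, limma adjusted p = 0.97), and scrambled culture 4 had the highest scrambled value on each. The mean over the 3 probe sets differed by 0.25 (limma adjusted p = 0.42). Which transcript forms the 3 probe sets read is not given in the sources used here.

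**Figure D3:**
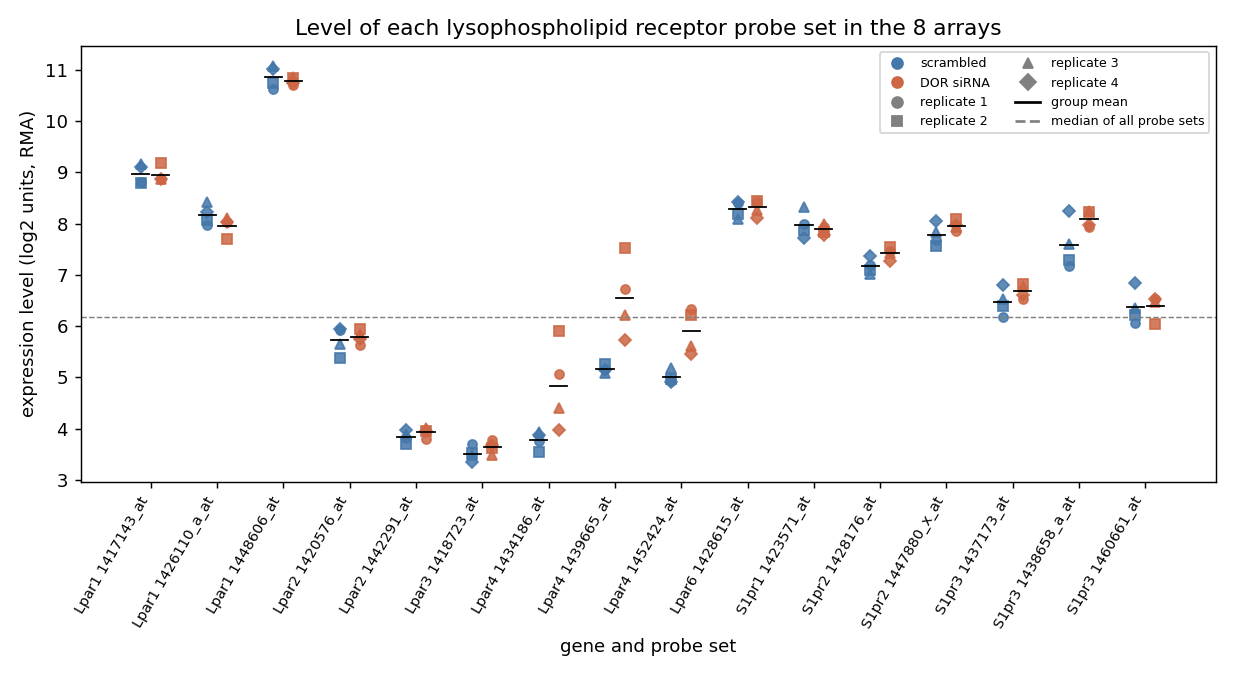
Level in log2 units (y axis) of every probe set of the 8 measured receptors (x axis) on each array, with scrambled in blue, DOR siRNA in orange, replicate numbers by symbol, group means as black bars and the median of all probe sets (6.18) dashed. The groups are separate for Lpar4 and overlap for the other probe sets, and the S1pr3 probe sets show scrambled culture 4 above the other scrambled arrays. Levels of different probe sets are not comparable.

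Other genes of the pathway were taken from 3 lists. Each gene was represented by its brightest probe set, by which 3.11% of all genes were called higher and 1.45% lower. Of 30 measured genes for the synthesis, breakdown and transport of lysophospholipids and for their other receptors, 1 rose, 0 fell and 29 did not pass; the median difference was 0.055, against 0.015 over all genes. Lpar5 and Gpr55 of this list were not analysed here. The gene that rose was Plpp2, a lipid phosphate phosphatase that removes the phosphate of lysophosphatidic acid and sphingosine 1-phosphate. It read 10.21, 10.01, 10.19 and 10.21 against 10.64, 10.58, 10.81 and 10.71, with every knockdown array above every scrambled one (0.53 ± 0.08, limma adjusted p = 0.0080). Plpp2 kept its call whichever array was left out, and its dimmer probe set differed by 0.007. The mean over both was 0.27 (limma adjusted p = 0.052).

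The related phosphatases Plpp1 and Plpp3 pointed the other way without passing, and these and the next genes are named after their values were seen. Plpp3 differed by -0.37 ± 0.11 (limma adjusted p = 0.094) and Plpp1 by -0.17 ± 0.08 (limma adjusted p = 0.37). Sphk1, the sphingosine kinase induced by growth factors, read 8.25 to 8.37 with scrambled RNA and 8.37 to 8.88 in the knockdown (0.29 ± 0.10, limma adjusted p = 0.18). Sgpp1, a sphingosine 1-phosphate phosphatase, differed by 0.32 ± 0.10 (limma adjusted p = 0.13), and the mean over its 3 probe sets passed. Sphk2 (0.01 ± 0.12) and Asah1, the acid ceramidase (-0.0033 ± 0.10), were close to 0.

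Of 20 measured G proteins, exchange factors and effectors, 1 rose, 0 fell and 19 did not pass, with a median difference of 0.15. Rock2 was not analysed here. Gnai1, a Gi alpha subunit that inhibits adenylyl cyclase, was the gene that rose. It read 5.36, 5.37, 4.89 and 5.50 against 7.13, 6.63, 6.55 and 5.65 (2.31-fold, log2 difference 1.21 ± 0.26, limma adjusted p = 0.031). Like Lpar4, it was lowest among the knockdown cultures in culture 4 and its scrambled mean (5.28) was below 6.18. Of its other probe sets 1434440_at passed (0.67 ± 0.15, limma adjusted p = 0.037) and 1427510_at did not (0.40 ± 0.10, limma adjusted p = 0.062), and the groups overlapped in none of the 3. Leaving out any 1 of scrambled cultures 1 to 3 or knockdown cultures 1 to 3 ended the Gnai1 call, with limma adjusted p from 0.057 to 0.097. So did a variance trend and robust prior (limma adjusted p = 0.061). The other Gi subunits, Gnai2 (0.27 ± 0.11) and Gnai3 (0.25 ± 0.12), did not pass by their brightest probe sets (limma adjusted p = 0.27 and 0.35). The dimmer Gnai2 probe set differed by 0.43 ± 0.12 with no overlap between groups, and the dimmer Gnai3 one by 0.24 ± 0.15. Neither passed (limma adjusted p = 0.094 and 0.53). Nor did Gnas, the Gs subunit, by its brightest probe set (-0.04 ± 0.09, limma adjusted p = 0.90), although a dim one, 1427789_s_at, fell (-0.38 ± 0.09, limma adjusted p = 0.038). Gnai2, Gnai3 and Gnas were named after their values were seen.

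Of 16 measured target genes of SRF and YAP, transcription regulators that respond to the state of the actin cytoskeleton, 2 rose, 0 fell and 14 did not pass, with a median difference of 0.024, which turned to -0.051 when probe sets were averaged per gene. Axl, a receptor tyrosine kinase, rose by 0.50 ± 0.08 (limma adjusted p = 0.0100) from a mean of 10.83 to 11.32 and kept its call whichever array was left out. The dimmer Axl probe set differed by 0.27 ± 0.10 and did not pass (limma adjusted p = 0.22). Fosl1, a subunit of AP-1, rose by 0.55 ± 0.11 (limma adjusted p = 0.022). The dimmer Fosl1 probe set differed by 0.60 ± 0.16 and did not pass (limma adjusted p = 0.071). The groups overlapped on both dimmer probe sets. Leaving out any 1 of scrambled cultures 1 to 3 or knockdown cultures 1 and 3 ended the Fosl1 call, with limma adjusted p from 0.059 to 0.075. The best known targets in the list, named after their values were seen, did not move together: Ccn1 differed by 0.41 ± 0.16 (limma adjusted p = 0.23), Ccn2 by -0.37 ± 0.33 (0.69) and Ankrd1 by -0.34 ± 0.09 (0.066).

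Pairing the cultures by number raised these counts and those over all genes. With the replicate number as a block, 3 genes of the first list were higher (Plpp2, Pla1a and Acer3), 3 of the second (Gnai1, Plcb1 and Plcb3) and 2 of the third, where 1 was lower (Ankrd1), while that fit called 5.1% of all genes higher and 3.16% lower. It called none of the 7 other receptors. Pla1a, Acer3, Plcb1 and Plcb3 are named after their values were seen. Without scrambled culture 4, 3 genes of the first list were higher and 1 lower (Plpp3), 1 of the second was higher, and 2 of the third were higher and 1 lower, while 4.33% of all genes were called higher and 2.63% lower.

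**Figure D4:**
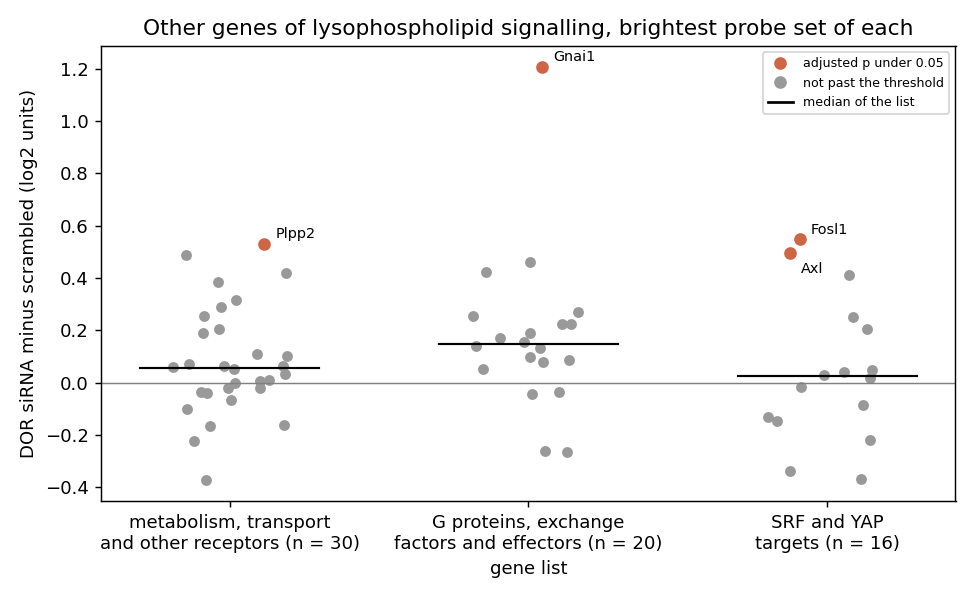
Difference between DOR siRNA and scrambled cultures in log2 units (y axis) for the brightest probe set of each gene in the 3 lists (x axis), with genes of limma adjusted p under 0.05 in orange and named, others in grey, and the list medians as black lines (points are spread sideways at random). Gnai1 lies at 1.21, above the other genes, and the list medians lie between 0.024 and 0.15.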

How the data were processed

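The authors deposited log2 expression values, 1 per probe set. The submitters' processing notes name RMA, with no version. Quantile normalization, part of RMA, would hide a shift of all transcripts. Of 45101 probe sets 64 Affymetrix controls were left out. A single symbol was listed for 34945 of the other 45037 probe sets, which named 18193 genes; 932 had several symbols and were not named. Groups (4 arrays each) were tested by limma 3.58.1 (R 4.3.3) with group alone, eBayes and Benjamini-Hochberg adjustment over all 45037 probe sets. The labels call the cultures biological replicates and do not say whether each was transduced separately, so p-values measure the spread between these samples.

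Tested on simulated data (200 changed of 45037 probe sets, 5 runs), the fit found 40.4% of changes of 0.5 log2 units, 91.6% of 1, 98.4% of 1.5 and 98.8% of 2, and 3.95% of its calls were false. In the simulation the noise was independent between probe sets and arrays, without pairing, whereas 1452 probe sets were called in the data. These rates may therefore differ from those in the data. The number of arrays limits the precision. Deviations of same-numbered cultures correlated at 0.142 to 0.468 and those of different numbers at -0.394 to 0.265. The main test did not pair the cultures. Pairing by number entered only an alternative, called the replicate block. Estimates, SEs and p-values are unpaired unless that block is named.

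Members and lists were chosen with earlier results of these data known. Named were all members, Trp53inp2, up to 4 called genes per list with the smallest p, and the 5 genes closest to Lpar4 by each measure. The called muscle markers and Kdr were named after their values were seen, and others are marked where they appear. Promoter windows came from RefSeq (GRCm38.p6). Figures were drawn with matplotlib 3.10.9.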

Additional observations from a re-analysis of the deposited data

Results flagged for a closer look

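Single arrays stood apart from the other 3 of their group for 2 of the members' probe sets, among 32 groups of 4 checked, a number of which chance alone flags about 1 in 20. On the Lpar1 probe set 1417143_at knockdown culture 2 read 9.18 while the next highest knockdown array read 8.87. On the S1pr3 probe set 1460661_at the same culture read 6.05, below the next lowest knockdown array at 6.48. On another Lpar1 probe set, 1426110_a_at, culture 2 was the lowest knockdown array instead, at 7.70.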

How the results depend on the processing

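The 1452 probe sets called in all became 2827 with the replicate block, 2634 with the 3' minus 5' covariate and between 608 (without scrambled culture 3) and 2310 (without scrambled culture 4) with 1 array left out. The 4 genes called over the 3 lists became 9 with the replicate block, 7 with the covariate and 2 to 8 with 1 array left out. Of the 13 probe sets of the other receptors, 0 were called except without scrambled culture 4, where it was 1 (S1pr3). Differences near 0 changed sign with 1 array left out: Lpar6 ran from -0.025 to 0.10, Lpar2 from -0.042 to 0.14 and S1pr1 from -0.17 to 0.026. The cause of these changes was not tested. Lpar4 stayed positive in every fit, at 1.12 averaged over its probe sets and 1.37 after cyclic loess. These fits reuse the values for which it was chosen, so they are a description and no support. The brighter probe set of Trp53inp2 kept its call in every fit of single probe sets; no mean over its probe sets was fitted. The replicate block changed no call among the receptors. Leaving out dim probe sets removed Lpar2, Lpar3 and 2 probe sets of Lpar4 from the fit.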
